A study of Homo sapiens with 12 samples.

Results

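Aminoacyl-tRNA synthetases are the enzymes that join each amino acid to its transfer RNA, and the genes described here are those of the cytosolic enzymes, of the mitochondrial enzymes and of the scaffold proteins of the cytosolic multisynthetase complex. They were taken by gene name from the table of the whole series, which gave 39 of 58735 genes: 20 subunits or enzymes of the cytosol, 16 mitochondrial enzymes whose names end in S2, and 3 scaffolds. The rule used gene names and no measured value, but the members were chosen with earlier results of these data known. All 39 genes were measurable, with between 37 and 19327 reads per gene and library, and all 39 passed the filter on low values. SARS2, the mitochondrial seryl-tRNA synthetase, was the lowest and reached 1 FPKM (fragments per kilobase of gene model, scaled to sequencing depth) in 8 of 12 libraries, and the others did so in 12 of 12.

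The cells were HepaRG, a human hepatic line, and the series belongs to a study of lipids in liver fibrosis. The PA+OA group received 400 µM palmitate labelled with deuterium, a saturated fatty acid, and 200 µM oleate, a monounsaturated fatty acid, for 4 h. The PA+BMS group had 50 µM BMS-309403, an inhibitor of FABP4, a carrier of fatty acids in the cell, over 24 h with 400 µM palmitate for 4 h. The PA group received 400 µM palmitate alone for 4 h, and control cells went without treatment. Each of these 4 groups had 3 libraries of wild-type cells, and no group received oleate or BMS-309403 without palmitate, so an effect of either agent by itself and an effect on top of palmitate cannot be told apart.

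Each synthetase activates an amino acid with ATP and loads it onto the matching transfer RNA, and the loaded transfer RNAs feed the ribosomes of the cytosol or of the mitochondrion. All of these enzymes are encoded in the nucleus, mostly by separate genes for the compartments, while GARS and KARS each encode the enzyme of both. Several cytosolic enzymes sit together with the scaffolds AIMP1, AIMP2 and EEF1E1 in the multisynthetase complex. Many cytosolic genes are known targets of ATF4, the transcription factor of the integrated stress response, whereas mitochondrial synthetase genes are best known from inherited diseases of brain, muscle, heart and hearing.

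ATF4 with a C/EBP partner binds a composite element whose core is TGATGNAA, and the promoter stretches that hold it are shown because they mark which of these genes carry the letters through which that response is known to act. In windows of 250 bases before to 50 bases after the gene start (RefSeq, GRCh38.p14, 33 of 39 genes matched), the element was searched on both strands. DARS, LARS, VARS, YARS, AARS2 and VARS2 had no window and were not searched, so their absence from the list below says nothing about the element. It was found for 7 of 16 cytosolic synthetases, 1 of 14 mitochondrial synthetases and 0 of 3 scaffolds, and in 1270 of 35116 promoter windows of all genes (3.62%). Counted by windows, 7 of 21 for the cytosolic genes held it (33.3%). The form TTGCATCA, which is the same element read on the other strand with N as C, was in 6 of the 33 genes and in 0.866% of all windows. Each stretch has 28 bases, 5′ to 3′ in the direction of the gene, and capitals mark the 8 bases of the match.
AARS, alanyl: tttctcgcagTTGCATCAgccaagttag
CARS, cysteinyl: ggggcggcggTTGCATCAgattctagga
GARS, glycyl: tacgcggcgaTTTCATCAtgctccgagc
IARS, isoleucyl: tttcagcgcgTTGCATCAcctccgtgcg
MARS, methionyl: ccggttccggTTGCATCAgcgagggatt
NARS, asparaginyl: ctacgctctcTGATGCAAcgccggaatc
TARS, threonyl: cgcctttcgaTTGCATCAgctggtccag
YARS2, mitochondrial tyrosyl: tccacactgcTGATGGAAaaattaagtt
These stretches lie at chr16:70289676-70289703 for AARS, chr11:3057408-3057435 for CARS and chr9:92293693-92293720 for IARS, all on the minus strand. They lie at chr7:30594835-30594862 for GARS, chr12:57488054-57488081 for MARS and chr5:33440957-33440984 for TARS, all on the plus strand. Those of NARS and YARS2 are at chr18:57621805-57621832 and chr12:32756077-32756104 on the minus strand. The match began -4 bases from the start of MARS, -2 from that of CARS and -13 from that of IARS, and 3 and 15 bases past the start in TARS and NARS. It lay farther upstream in GARS, at -33, in AARS, at -187, and in YARS2, at -197. A match describes letters in the sequence and was not tested for binding.

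The libraries held between 16059128 and 19971190 whole reads, recovered from the FPKM values. On the first principal component, which held 54.4% of the variance, PA+OA replicate 1 lay at 54.6 and PA+BMS replicate 3 at -51.5, the other libraries of these groups lying between -19.4 and 18.1, and control replicate 1 lay at -5.70 against -27.1 and -24.6 for the other controls. The gene loadings of this component followed the GC content of transcripts (Spearman 0.68 across 11848 genes, a description, since genes share libraries). Of 8 hepatocyte markers, 0 reached 1 FPKM in any library and ALB and FABP1 had no read, while KRT8 and KRT18 of simple epithelia, KRT7 of bile ducts and COL1A1, PDGFRB and LUM of stellate cells or fibroblasts reached it in all 12. The other 3 of 4 bile duct markers (KRT19, EPCAM and SOX9) and COL3A1 reached 1 FPKM in 0 libraries, and ACTA2 did in 5. The summed bile duct markers, nearly all KRT7, ran from 140 to 185 FPKM in PA+BMS, against 571 to 669 in PA and 477 to 564 in control, and from 520 to 917 in PA+OA. Their part in the results below was not tested. These are bulk samples, in which fewer cells of a type and less RNA per cell cannot be told apart. Whether the replicates were grown separately is not in the labels, so the spread behind the p-values may be technical.

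Among the cytosolic genes AARS, for alanine, was the highest, with a median of 186 FPKM over the 12 libraries and a range of 130.2 to 278. FARSA, the alpha subunit for phenylalanine, followed at a median of 116 FPKM, then SARS for serine at 103, VARS for valine at 91.5, GARS for glycine at 89.6 and MARS for methionine at 72.9. The ranges of these neighbours overlapped. DARS, for aspartate, was the lowest cytosolic gene at a median of 8.50 FPKM, next to CARS for cysteine at 12.1. The order of genes and the ratios between them depend on the gene length used, 10037 bases for CARS and 4014 for DARS. Most mitochondrial genes were lower than the cytosolic gene for the same amino acid, with IARS2 and CARS2 as the exceptions, and several lay above other cytosolic genes. Their order was led by IARS2 for isoleucine at a median of 52.3 FPKM, with YARS2 for tyrosine at 23.7 and TARS2 for threonine at 21.5. At the other end stood WARS2 for tryptophan at 3.23 FPKM, PARS2 for proline at 2.96 and SARS2 for serine at 1.18.

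Set side by side for the same amino acid, the cytosolic enzyme had the higher level in most pairs, and the size of the gap differed widely. For serine the ratio of SARS to SARS2 had a median of 77.2 over the 12 libraries, and for tryptophan that of WARS to WARS2 was 17.5. SARS2, with a gene length of 3231 bases, shares 349 exonic bases with MRPS12 on the opposite strand, which reached 67.3 FPKM. It also shares 1492 exonic bases on the same strand with AC011455.2, whose highest value was 0.0 FPKM. The reads of SARS2, its low level and its ratio are therefore uncertain. VARS2 shares 1858 exonic bases on the same strand with GTF2H4, which reached at most 0.0763 FPKM, so its level is uncertain too. How shared reads were counted was not tested. For cysteine and isoleucine the mitochondrial gene was the higher in the median library, with CARS to CARS2 at 0.822 and IARS to IARS2 at 0.864. The ratio of MARS to MARS2 was 13.3 ± 5.01 in PA+OA, 11.1 ± 0.296 in PA+BMS and 12.9 ± 1.35 in PA, and 6.39 ± 1.58 in control (SD, n = 3). The threonine pair ran the other way. TARS to TARS2 stood at 1.98 ± 0.478 in PA+OA, 4.21 ± 1.20 in PA+BMS and 1.501 ± 0.254 in PA, and 3.75 ± 0.4999 in control (SD, n = 3).

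**Figure D1:**
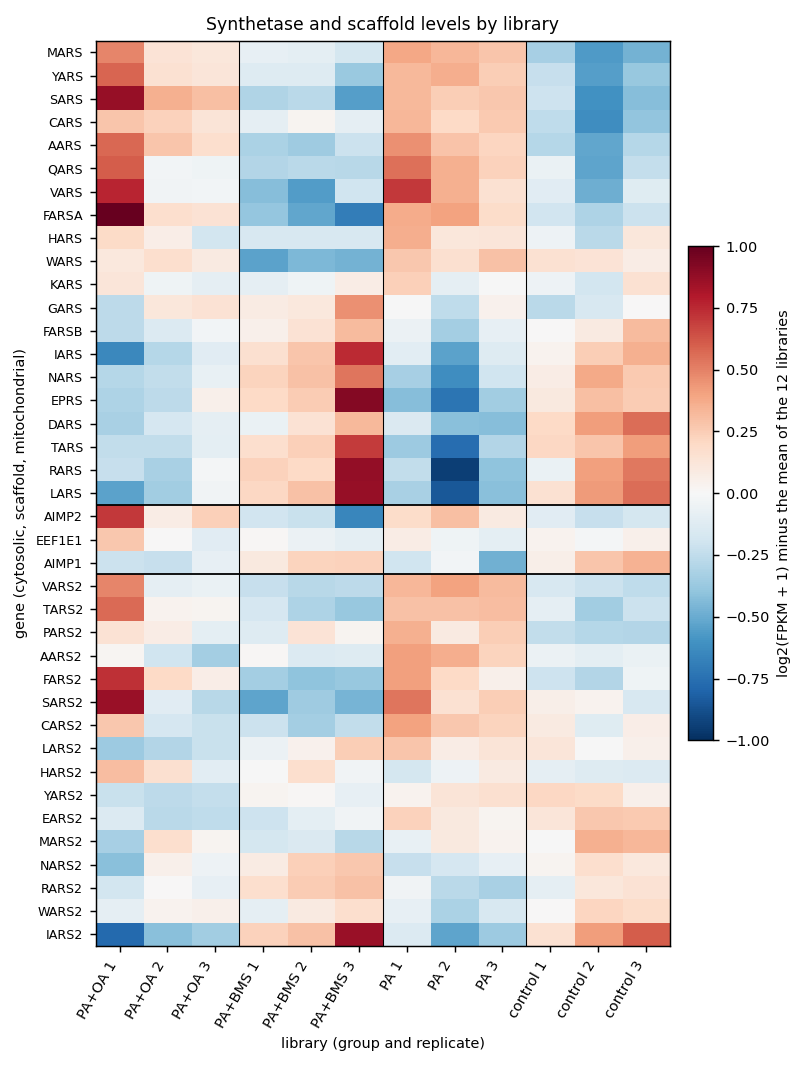
Heat map of log2(FPKM + 1) for the 39 genes (rows, in blocks of cytosolic, scaffold and mitochondrial genes, ordered by their change in PA against control) in the 12 libraries (columns), each row with its mean over the 12 libraries subtracted. The cytosolic genes split into a block that was high in PA and PA+OA, such as MARS and AARS, and a block that was low there, such as TARS and LARS, and the strongest departures lay in PA+OA replicate 1, PA+BMS replicate 3 and PA replicate 2.

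Setting PA against control shows the cells after 4 h of palmitate. The cytosolic synthetases moved in both directions: MARS, CARS, AARS, YARS, SARS, QARS and VARS rose, and DARS, EPRS, LARS, NARS, RARS and TARS fell, so 7 of 20 rose and 6 fell. Of the 16 mitochondrial genes 4 rose (AARS2, PARS2, TARS2 and VARS2) and 2 fell (IARS2 and WARS2), and of the scaffolds AIMP1 fell. Over all 11856 genes tested with limma, 12.8% rose and 14.8% fell at an adjusted p of 0.05 (27.6% in all), which is the background for 11 rises and 9 falls among 39. The median log2 change was 0.10 for the cytosolic genes, 0.09 for the mitochondrial genes and 0.03 for all genes.

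MARS, the methionyl enzyme of the multisynthetase complex (ENSG00000166986, chromosome 12, 57475445 to 57517569, plus strand), had 94.5, 90.6 and 87.2 FPKM in PA libraries 1, 2 and 3, against 56.9, 48.1 and 51.5 FPKM in control. Every PA library lay above every control library. Its log2 change was 0.79 (SE 0.12, limma adjusted p = 0.00226). The annotation places 355 exonic bases of MARS on the strand opposite to DDIT3, the gene of the stress factor CHOP, and how reads there were divided is uncertain. DDIT3 had 21.0, 23.7 and 23.4 FPKM in PA, against 14.0, 3.68 and 2.43 FPKM in control.

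CARS, which charges cysteine (ENSG00000110619, chromosome 11, 3000922 to 3057613, minus strand), had 14.6, 13.3 and 13.9 FPKM in PA, against 9.40, 7.10 and 8.44 FPKM in control. Its log2 change was 0.69 (SE 0.11, adjusted p = 0.00237). AARS, which charges alanine (ENSG00000090861, chromosome 16, 70252295 to 70289543, minus strand), had 257, 228 and 217 FPKM in PA, against 153, 130.2 and 153 FPKM in control. The groups did not overlap for either gene. AARS changed by 0.68 (SE 0.14, adjusted p = 0.00693). YARS, for tyrosine, whose protein is also known to be secreted and cut into signalling fragments, had 76.5, 78.6 and 72.4 FPKM in PA, against 51.9, 41.3 and 46.7 FPKM in control, without overlap (log2 change 0.70, SE 0.14, adjusted p = 0.00798).

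Among the genes that fell, DARS, the aspartyl enzyme of the complex (ENSG00000115866, chromosome 2, 135906677 to 135986100, minus strand), had 8.06, 6.51 and 6.45 FPKM in PA, against 10.5, 12.4 and 13.7 FPKM in control (log2 change -0.72, SE 0.14, adjusted p = 0.00546). TARS, which charges threonine (ENSG00000113407, chromosome 5, 33440696 to 33469539, plus strand), had 43.8, 33.0 and 46.1 FPKM in PA, against 65.5, 68.9 and 76.2 FPKM in control (log2 change -0.77, SE 0.16, adjusted p = 0.00841). All PA libraries lay below all controls for both genes, with PA replicate 2 the lowest for TARS. LARS, the leucyl enzyme, also known as a leucine sensor upstream of mTORC1, had 11.3, 7.53 and 10.5 FPKM in PA, against 16.1, 19.7 and 21.6 FPKM in control, the largest fall among the 39 at -0.91 (SE 0.20, adjusted p = 0.0112). Its groups did not overlap. GARS (0.07, SE 0.15, adjusted p = 0.734) and KARS (0.08, SE 0.13, adjusted p = 0.642), which serve both compartments, and WARS (0.12, SE 0.09, adjusted p = 0.330), which is also induced by interferon, did not pass the test.

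**Figure D2:**
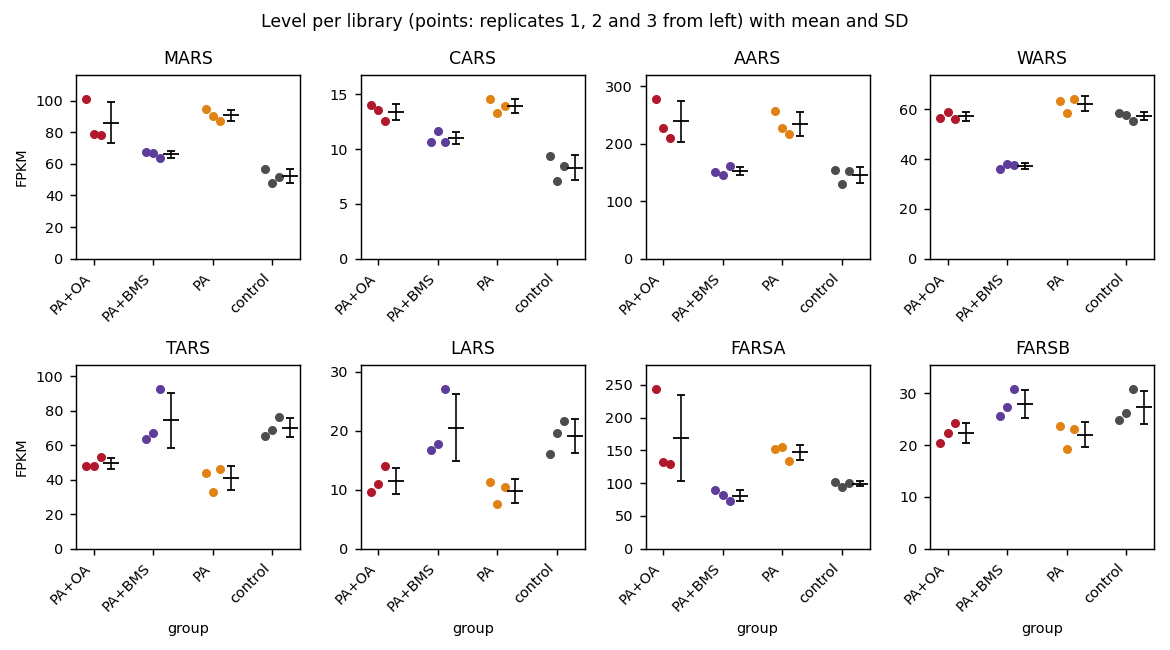
FPKM of MARS, CARS, AARS, WARS, TARS, LARS, FARSA and FARSB in each library, by group, with the mean and SD of 3 libraries beside the points. MARS, CARS and AARS were higher in PA than in control and TARS and LARS lower, and WARS lay between 35.9 and 38.2 FPKM in PA+BMS, below all 9 other libraries.

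Members of the same complex passed the test in both directions. Of the 8 synthetases of the multisynthetase complex 2 rose (MARS and QARS) and 4 fell (DARS, EPRS, LARS and RARS), with a median log2 change of -0.59, and of the 12 that stand free of it 5 rose and 2 fell, with a median of 0.41, beside 12.8% and 14.8% of all genes. By voom on recovered reads the counts were 2 and 5 in the complex and 5 and 3 outside it, and the difference between these sublists was not tested. EPRS, which joins the glutamyl and prolyl enzymes in a single protein, had 31.7, 25.4 and 33.4 FPKM in PA, against 45.8, 53.0 and 51.1 FPKM in control. Likewise RARS, for arginine, was at 17.4, 10.3 and 15.4 FPKM in PA, against 19.7, 27.9 and 30.3 FPKM in control, and the groups were separate for both. AIMP1, a scaffold also known as a secreted cytokine precursor, fell by 0.46 on the log2 scale (adjusted p = 0.0220), while AIMP2 was at 0.37 and EEF1E1 at -0.05 without passing the test.

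Genes counted here as known ATF4 targets were called in both directions, beside 27.6% of all genes called. Of 12 such cytosolic synthetases 5 rose (AARS, CARS, MARS, SARS and YARS) and 4 fell (EPRS, LARS, NARS and TARS), and of the other 8 cytosolic genes 2 rose and 2 fell (5 and 5, and 2 and 3, by voom). ATF4 itself had 396, 410.2 and 397 FPKM in PA, against 241, 105 and 76.3 FPKM in control, and rose by 1.68 (SE 0.33, adjusted p = 0.00622). Control replicate 1 was the highest control for ATF4 and for DDIT3. Of 10 integrated stress response genes 9 rose and 0 fell, and those of lowest p were ATF3 (2.48), an early stress-induced factor, and PPP1R15A (2.13), which directs the dephosphorylation of eIF2α. XPOT, the exporter of transfer RNA from the nucleus and also an ATF4 target, had 18.6, 15.3 and 21.1 FPKM in PA, against 25.2, 30.03 and 31.2 FPKM in control, and fell by 0.63 (SE 0.21, adjusted p = 0.0405). Of the 7 cytosolic genes with TGATGNAA in the promoter stretches shown, AARS, CARS and MARS rose, NARS and TARS fell, and GARS and IARS did not pass the test.

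The direction of these changes followed base composition. The cytosolic genes that rose had transcripts of 48.5% to 60.7% GC (median 53.7%), and those that fell had 40.4% to 45.4% (median 42.2%), so the ranges did not meet. Across genes the Spearman coefficient of GC content and log2 change was 0.79 for the 20 cytosolic genes, 0.79 for the 16 mitochondrial genes and 0.66 for all 11848 genes with sequence. All of these points share the same libraries. After removal of the trend of every library with GC content and gene length, 5 cytosolic genes rose and 4 fell, and 1 mitochondrial gene rose and 1 fell, where 7.04% of all genes rose and 9.71% fell. MARS (0.65, adjusted p = 0.00162), CARS (0.59, adjusted p = 0.00282), AARS, SARS and YARS still rose, and DARS, LARS, NARS and TARS (-0.50, adjusted p = 0.0141) still fell. EPRS (adjusted p = 0.0640), RARS (0.0782), QARS (0.0504) and VARS (0.152) were no longer called, and in the mitochondrial list VARS2 rose and EARS2 fell. A coefficient of 0.70 was left for the cytosolic genes and 0.43 for the mitochondrial genes, against 0.02 for all genes. An association of change with GC content was thus left among these genes, and its source was not tested.

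**Figure D3:**
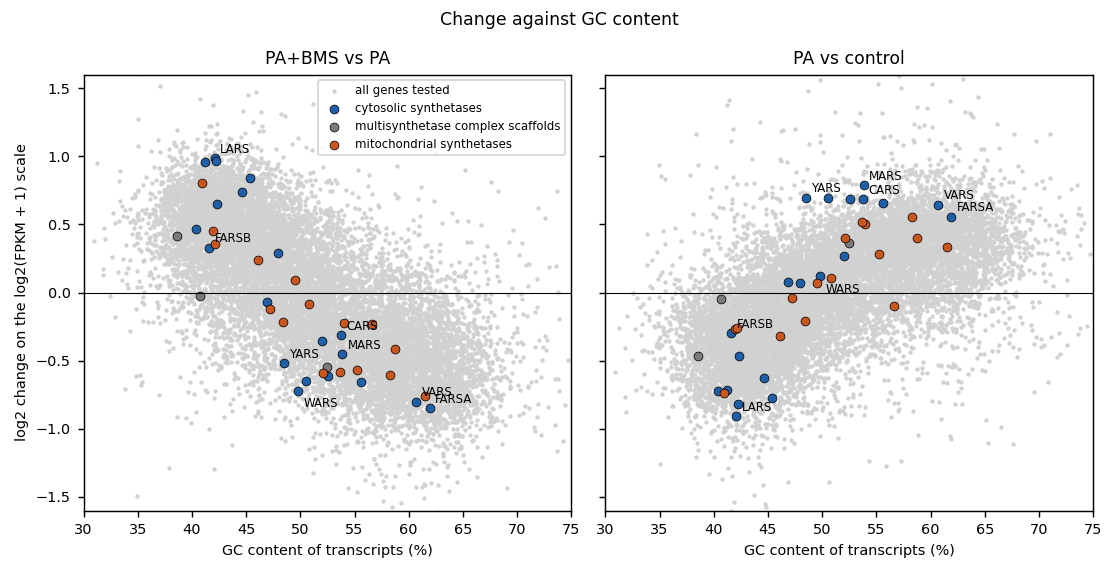
Log2 change (vertical axis, log2(FPKM + 1) scale) against the GC content of transcripts in percent (horizontal axis) for all genes tested (grey) and the 39 genes (coloured by class), in PA+BMS against PA and in PA against control; a few genes with larger changes lie outside the axes. The coloured points slope down in PA+BMS against PA and up in PA against control, along with the grey cloud.

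How many genes passed depended on single libraries. The cytosolic genes that rose numbered 4 without control replicate 2 and 4 without control replicate 3, and those that fell numbered 2 without PA replicate 2, 2 without control replicate 2 and 3 without control replicate 3. The calls of AARS, MARS, YARS, TARS, CARS, DARS and PARS2 survived the omission of any of the 12 libraries, those of EPRS, LARS and RARS ended without PA replicate 2, control replicate 2 or control replicate 3, and that of NARS without PA replicate 2 or control replicate 2 (highest adjusted p 0.0558 to 0.101). Mitochondrial rises fell in number to 2 without PA replicate 1 and to 1 without PA replicate 2, control replicate 2 or control replicate 3, and mitochondrial falls were 0 without PA replicate 2, control replicate 2 or control replicate 3, 4 without PA+OA replicate 1, and 1 without PA+OA replicates 2 or 3, PA+BMS replicates 1 or 2, or PA replicates 1 or 3. SARS was lost without control replicate 2 or 3 (highest adjusted p 0.0687), AIMP1 without PA replicate 1 or 3 or control replicate 2 or 3 (highest 0.0878), and IARS2 and VARS2 without PA replicate 2 or control replicate 2 or 3. QARS and AARS2 were lost without PA replicate 1 or 2 or control replicate 2 or 3, and TARS2 without these or PA replicate 3. VARS and WARS2 were called in 3 of 12 such fits (highest 0.176 and 0.173). Scaling every library to an equal total put the median of all genes at -0.22, and then 6 cytosolic genes rose and 8 fell (median -0.18), and 1 mitochondrial gene rose and 4 fell (median -0.17). By voom, where the median of all genes was -0.15, 7 cytosolic genes rose and 8 fell, and 3 mitochondrial genes rose and 3 fell.

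**Figure D4:**
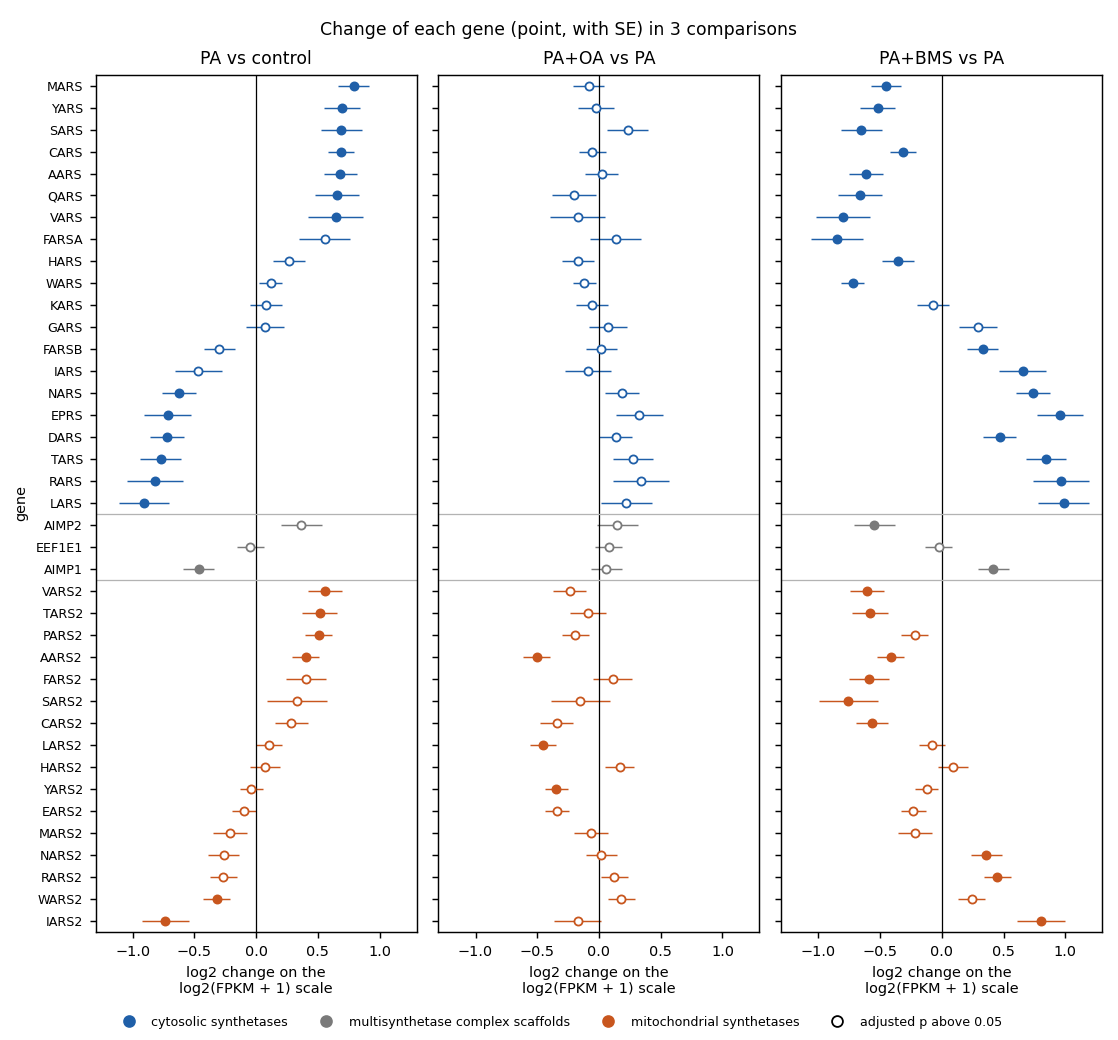
Log2 change with its standard error (horizontal axis) of each of the 39 genes (rows) for PA and control, PA+OA and PA, and PA+BMS and PA; filled points passed the limma test at an adjusted p of 0.05. The filled points in PA against control run from 0.79 for MARS to -0.91 for LARS, only AARS2, LARS2 and YARS2 are filled for PA+OA and PA, and 29 genes are filled for PA+BMS and PA.

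Setting PA+OA against PA shows palmitate with and without added oleate, at a higher total of fatty acid with oleate. Deuterium is named above only for the palmitate of PA+OA, and an effect of a label not shared by both groups was not tested. The test called 3 mitochondrial genes, AARS2, LARS2 and YARS2, all lower in PA+OA, and no cytosolic gene. This comparison shares the PA libraries with the others, so their values are not independent. Of 20 cytosolic synthetases 0 rose and 0 fell in limma, with 0 at an unadjusted p under 0.05 and 0 called by voom on recovered reads. Of 16 mitochondrial synthetases 0 rose in limma or voom, 3 fell, and 5 were at an unadjusted p under 0.05. Over all genes 4.01% rose and 3.91% fell (7.91% in all). The median log2 change was 0.02 for the cytosolic genes, -0.16 for the mitochondrial genes and -0.0024 for all genes.

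AARS2, the mitochondrial alanyl enzyme, mutated in cardiomyopathy and in leukoencephalopathy with ovarian failure (ENSG00000124608, chromosome 6, 44299654 to 44313326, minus strand), had 10.97, 9.29 and 8.31 FPKM in PA+OA, against 14.7, 14.2 and 12.8 FPKM in PA (log2 change -0.51, SE 0.11, adjusted p = 0.0143). LARS2, the mitochondrial leucyl enzyme, linked to Perrault syndrome with hearing loss (ENSG00000011376, chromosome 3, 45388506 to 45549421, plus strand), had 5.64, 5.995 and 6.32 FPKM in PA+OA, against 9.37, 8.03 and 8.34 FPKM in PA (log2 change -0.45, SE 0.11, adjusted p = 0.0209). For both genes every PA+OA library lay below every PA library. YARS2, the mitochondrial tyrosyl enzyme, mutated in myopathy with lactic acidosis and sideroblastic anaemia (ENSG00000139131, chromosome 12, 32727490 to 32755902, minus strand), had 19.7, 19.1 and 19.5 FPKM in PA+OA, against 23.7, 25.4 and 25.9 FPKM in PA (log2 change -0.35, SE 0.09, adjusted p = 0.0393). Its 3 PA+OA values were close together and separate from PA.

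EARS2, the mitochondrial glutamyl enzyme, had 6.91, 6.19 and 6.26 FPKM in PA+OA, against 9.17, 8.28 and 7.83 FPKM in PA, and missed the threshold (-0.34 on the log2 scale, SE 0.10, adjusted p = 0.0570) although the groups were separate. CARS2, for cysteine, had 17.3, 12.5 and 11.97 FPKM in PA+OA, against 19.0, 17.3 and 16.8 FPKM in PA (-0.34, SE 0.13, adjusted p = 0.147). VARS2, for valine, had 12.8, 8.28 and 8.44 FPKM in PA+OA, against 11.4, 12.04 and 11.3 FPKM in PA (-0.24, SE 0.14, adjusted p = 0.366). In both of these PA+OA replicate 1 was the high library of its group, within the PA range for CARS2 and above it for VARS2. Among the cytosolic genes MARS was at -0.08 (SE 0.12, adjusted p = 0.792), GARS at 0.07 (SE 0.15, adjusted p = 0.870), KARS at -0.06 (SE 0.13, adjusted p = 0.881) and WARS at -0.12 (SE 0.09, adjusted p = 0.547).

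The 3 mitochondrial genes also fell with the GC and length trend removed, at -0.45 for AARS2 (adjusted p = 0.00203), -0.40 for LARS2 (0.00625) and -0.45 for YARS2 (0.00203), where 7.01% of all genes rose and 7.24% fell. The number of mitochondrial falls was 7 without PA+OA replicate 1, 0 without PA+OA replicate 2 or PA replicate 1, and 1 without PA+OA replicate 3, PA replicate 2 or PA replicate 3. AARS2 was lost without PA+OA replicates 2 or 3 or PA replicates 1 or 2 (highest adjusted p 0.0734), LARS2 without PA+OA replicate 2 or PA replicates 1 or 3 (highest 0.103), and YARS2 was called in 2 of 12 such fits (highest 0.135). Voom on recovered reads called 1 of 16.

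Stress genes moved in PA+OA against PA while the cytosolic synthetases did not pass the test. DDIT3 had 113, 122 and 103 FPKM in PA+OA, against 21.0, 23.7 and 23.4 FPKM in PA, and rose by 2.26 (SE 0.41, adjusted p = 0.00550). ASNS, asparagine synthetase, rose by 1.003 (SE 0.11, adjusted p = 0.000299) and ATF3 by 1.72. ATF4 had 528, 424 and 381 FPKM in PA+OA, against 396, 410.2 and 397 FPKM in PA, with overlapping groups (0.13, SE 0.33, adjusted p = 0.889). In all 5 of 10 integrated stress response genes rose and 1 fell, beside 4.01% and 3.91% of all genes. XPOT stood at 15.3, 22.0 and 25.3 FPKM in PA+OA, against 18.6, 15.3 and 21.1 FPKM in PA (0.16, SE 0.21, adjusted p = 0.748).

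Setting PA+BMS against PA shows palmitate-treated cells with and without 24 h of BMS-309403. WARS fell to 35.9, 38.2 and 37.6 FPKM in PA+BMS, and NARS, TARS, EPRS and LARS rose. In all, 8 of 20 cytosolic genes rose (DARS, EPRS, FARSB, IARS, LARS, NARS, RARS and TARS) and 10 fell (AARS, CARS, FARSA, HARS, MARS, QARS, SARS, VARS, WARS and YARS). Of 16 mitochondrial genes 3 rose (IARS2, NARS2 and RARS2) and 6 fell (AARS2, CARS2, FARS2, SARS2, TARS2 and VARS2), and of the scaffolds AIMP1 rose and AIMP2 fell. Over all genes 25.2% rose and 29.4% fell (54.5% in all), so the background was high. Median log2 changes were -0.19 for the cytosolic genes, -0.22 for the mitochondrial genes and -0.04 for all genes.

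WARS, which charges tryptophan and is also an interferon-induced gene (ENSG00000140105, chromosome 14, 100333788 to 100376805, minus strand), had 35.9, 38.2 and 37.6 FPKM in PA+BMS, against 63.6, 58.7 and 64.4 FPKM in PA (log2 change -0.72, SE 0.09, adjusted p = 0.00113). The same PA+BMS libraries set against 58.4, 57.8 and 55.4 FPKM in control gave -0.61 (SE 0.09, adjusted p = 0.00179), and 56.4, 59.0 and 56.0 FPKM in PA+OA against them gave 0.60 (SE 0.09, adjusted p = 0.00121). The 3 PA+BMS values lay close together and below all 9 other libraries. After removal of the GC and length trend, the change of WARS against PA was -0.83 (adjusted p = 0.000122) and that against control -0.66 (adjusted p = 0.000163). All 3 calls of WARS that involve PA+BMS are from comparisons that share its 3 libraries. WARS shares 287 exonic bases with WDR25 on the opposite strand.

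NARS, which charges asparagine (ENSG00000134440, chromosome 18, 57600656 to 57622213, minus strand), had 39.1, 41.0 and 48.6 FPKM in PA+BMS, against 26.2, 21.3 and 28.8 FPKM in PA (log2 change 0.73, SE 0.14, adjusted p = 0.00406). TARS had 63.8, 66.9 and 92.7 FPKM in PA+BMS, against 43.8, 33.0 and 46.1 FPKM in PA (0.84, SE 0.16, adjusted p = 0.00436). For both, PA+BMS replicate 3 was the highest library and the groups did not overlap. EPRS (ENSG00000136628, chromosome 1, 219968601 to 220046658, minus strand) had 49.4, 51.1 and 81.8 FPKM in PA+BMS, against 31.7, 25.4 and 33.4 FPKM in PA (0.96, SE 0.19, adjusted p = 0.00463). LARS (ENSG00000133706, chromosome 5, 146113038 to 146182660, minus strand) had 16.7, 17.8 and 27.1 FPKM in PA+BMS, against 11.3, 7.53 and 10.5 FPKM in PA (0.99, SE 0.20, adjusted p = 0.00528). These 2 also stood highest in PA+BMS replicate 3 and were separate from PA without it.

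AARS had 150.0, 146 and 161 FPKM in PA+BMS, against 257, 228 and 217 FPKM in PA, and the groups were separate (log2 change -0.61, SE 0.14, adjusted p = 0.00660). MARS had 67.8, 67.0 and 63.4 FPKM in PA+BMS, against 94.5, 90.6 and 87.2 FPKM in PA (-0.45, SE 0.12, adjusted p = 0.0124). Against control, MARS in PA+BMS was at 0.34 (SE 0.12, adjusted p = 0.103). GARS (0.29, SE 0.15, adjusted p = 0.124) and KARS (-0.07, SE 0.13, adjusted p = 0.656) did not pass the test, and KARS turned to 0.31 (adjusted p = 0.0470) with library totals set equal. CARS, at -0.31 (SE 0.11, adjusted p = 0.0293), turned to 0.04 under that scaling and was lost without PA+BMS replicates 1 or 3 or any of the PA replicates (highest adjusted p 0.0884).

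The alpha and beta subunits of the cytosolic phenylalanyl enzyme, which work as a single complex, changed in opposite directions. FARSA had 89.5, 81.6 and 72.3 FPKM in PA+BMS, against 152, 155 and 133 FPKM in PA (-0.85, SE 0.21, adjusted p = 0.00859). FARSB had 25.5, 27.3 and 30.9 FPKM in PA+BMS, against 23.6, 19.2 and 23.2 FPKM in PA (0.33, SE 0.13, adjusted p = 0.0435). The transcripts of FARSA have 61.9% GC and those of FARSB 41.6%, and with the trend removed neither was called, at -0.22 (adjusted p = 0.116) for FARSA and -0.01 (adjusted p = 0.939) for FARSB. FARSB was called in 5 of 12 fits that left out a library and FARSA in 12.

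In PA+BMS against PA the multisynthetase complex had 5 of 8 synthetases that rose and 2 that fell, with a median log2 change of 0.56, and the free-standing group had 3 of 12 that rose and 8 that fell, with a median of -0.44, beside 25.2% and 29.4% of all genes. By voom 5 rose and 1 fell in the complex (median 0.87) and 4 rose and 5 fell outside it (median -0.18), and the difference between the sublists was not tested. With the GC and length trend removed, EPRS, LARS and RARS of the complex still rose and MARS still fell, while DARS, IARS and QARS were not called. Complex membership and GC content were not separated here either. IARS2, the highest mitochondrial gene (ENSG00000067704, chromosome 1, 220094102 to 220148041, plus strand), had 60.9, 63.9 and 94.9 FPKM in PA+BMS, against 47.0, 35.7 and 40.1 FPKM in PA, and 29.8, 38.6 and 40.5 FPKM in PA+OA. It rose by 0.80 against PA (SE 0.19, adjusted p = 0.00819), and all 3 PA+BMS libraries were above the 6 of PA and PA+OA. Control had 57.6, 69.6 and 79.5 FPKM, which overlapped PA+BMS, and IARS2 was not called between these groups. With the trend removed IARS2 stood at 0.39 (adjusted p = 0.0504).

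Base composition ran with these changes too. The cytosolic genes that rose had 40.4% to 45.4% GC and those that fell 48.5% to 61.9%, and the Spearman coefficient of GC content and log2 change was -0.85 for 20 cytosolic genes, -0.88 for 16 mitochondrial genes and -0.72 for all 11848. With the trend removed 5 cytosolic genes rose and 5 fell, and 0 mitochondrial genes rose and 4 fell (limma; 6 of the 16 were at an unadjusted p under 0.05, and voom without trend removal called 5 that rose), where 10.7% of all genes rose and 11.4% fell (22.1% in all). EPRS, LARS, NARS, RARS and TARS still rose and AARS, MARS, SARS, WARS and YARS still fell. The association with GC content was reduced rather than gone among these genes, with a coefficient of -0.64 left for the cytosolic genes against -0.04 for all genes. Its source was not tested.

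Of the 29 calls in PA+BMS against PA, 19 survived the omission of any of the 12 libraries, and 9 were lost without PA+BMS replicate 3, the library at the end of the first component. Without it, or without PA replicate 2, 5 cytosolic genes rose. FARSB was called in 5 of the 12 fits, HARS in 6, CARS in 7, NARS2 in 8, DARS in 9, IARS, AIMP1, AIMP2 and SARS2 in 10 and VARS in 11. Scaling to equal totals put the median of all genes at 0.29, and then 10 cytosolic genes rose and 5 fell (median 0.17) and 5 mitochondrial genes rose and 2 fell (median 0.12). By voom, where that median was 0.21, 9 cytosolic genes rose and 6 fell, and 5 mitochondrial genes rose and 5 fell. Equal totals also moved the median of all genes to -0.21 in PA+OA against control and to -0.28 in PA+OA against PA+BMS.

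Against control, PA+OA had 10 of 39 genes that rose and 10 that fell (17.5% and 18.8% of all genes, 36.3% in all; 7 and 10 by voom, 7 and 15 at equal library totals), and PA+BMS had 1 that rose and 1 that fell (4.77% and 6.25%). After removal of the trend the counts were 7 and 8 in PA+OA (17.6% and 20.1% of all genes) and 3 and 4 in PA+BMS (9.56% and 9.66%). A GC coefficient of 0.77 was then left for the cytosolic genes in PA+OA against control, against 0.01 for all genes. In PA+OA against control the leading calls were CARS (0.63, SE 0.11, adjusted p = 0.00121), MARS (0.71, SE 0.12, adjusted p = 0.00137) and SARS (0.92, SE 0.16, adjusted p = 0.00148), with IARS2 at -0.91. CARS had 14.0, 13.6 and 12.6 FPKM in PA+OA, against 9.40, 7.10 and 8.44 FPKM in control, without overlap. The number called was 10 without PA+OA replicate 1, 9 without control replicate 2 and 10 without control replicate 3. In PA+BMS against control the falling gene was WARS, called whichever of the 12 libraries was omitted, and the rising gene was CARS, at 10.7, 11.7 and 10.7 FPKM in PA+BMS (0.37, SE 0.11, adjusted p = 0.0463), which held in 2 of 12 (highest adjusted p 0.176), and 7 genes were called without PA+OA replicate 1. Leaving out control replicate 1 gave 3 calls, and leaving out any of the other 10 libraries gave 1, that of WARS.

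PA+OA and PA+BMS differed from each other in 23 of 39 genes, 12 higher and 11 lower in PA+OA, against 26.4% and 23.1% of all genes (49.6% in all). After removal of the trend 9 were higher and 8 lower (15.6% and 17.0% of all genes), with a GC coefficient of 0.70 left for the cytosolic genes. The split depended on the scaling, with 8 higher and 16 lower by voom and 5 higher and 18 lower at equal library totals. SARS had 185, 129 and 124 FPKM in PA+OA, against 81.7, 83.2 and 68.3 FPKM in PA+BMS (0.89, SE 0.16, adjusted p = 0.00264). FARSA was at 0.99 and IARS2 at -0.98. The number called was 14 without PA+OA replicate 1 and 9 without PA+BMS replicate 3, and 7 without both.

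Summed over the lists, the ratio of cytosolic to mitochondrial FPKM was 7.26 ± 0.697 in PA+OA, 5.14 ± 0.0681 in PA+BMS, 6.28 ± 0.179 in PA and 4.88 ± 0.292 in control (SD, n = 3). PA+OA replicate 1 was the highest library at 8.06, with 6.77 and 6.95 in the other PA+OA libraries. The 3 PA+OA libraries lay above the PA libraries, which lay at 6.49, 6.19 and 6.17, and all 6 lay above the PA+BMS and control libraries, whose ranges overlapped. This sum is carried by the few highest genes. The difference of mean log2 levels, in which each gene counts alike, was 2.21 ± 0.058 in PA+OA, 2.18 ± 0.082 in PA+BMS, 2.02 ± 0.078 in PA and 2.07 ± 0.067 in control. PA and control overlapped on that measure, and PA+BMS replicate 3, at 2.28, equalled the highest PA+OA library. With the trend removed it was 2.29 ± 0.071, 2.08 ± 0.014, 2.10 ± 0.056 and 2.01 ± 0.082 for PA+OA, PA+BMS, PA and control.

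**Figure D5:**
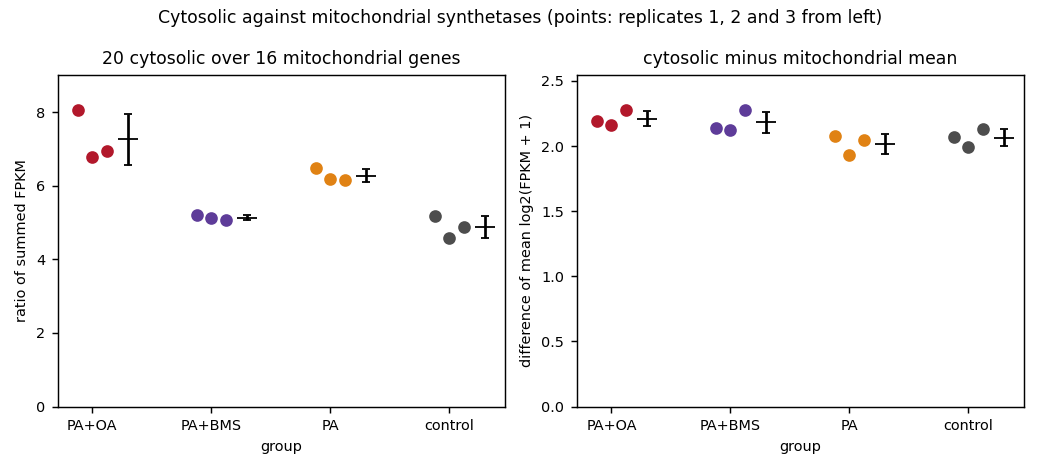
Ratio of the summed FPKM of 20 cytosolic to 16 mitochondrial synthetases (left) and difference of their mean log2(FPKM + 1) (right) in each library, by group, with mean and SD of 3 libraries. The ratio was 7.26 in PA+OA, 5.14 in PA+BMS, 6.28 in PA and 4.88 in control, and the difference of log2 means kept all 12 libraries between 1.93 and 2.28.

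Other genes of the pathway were read from the same fits. Of all genes, 12.8% rose and 14.8% fell in PA against control, and 4.01% and 3.91% in PA+OA against PA. The shares in PA+BMS against PA were 25.2% and 29.4%. These shares are the background for every count in this paragraph and the next. Apart from a remark on GFM1 and GFM2, all values there are without removal of the GC and length trend. GC content and log2 change had a Spearman coefficient over all genes of 0.66 in PA against control and -0.72 in PA+BMS against PA. The part of that trend in these pathway genes was not tested. Of 77 mitochondrial ribosomal protein genes tested, 2 rose and 4 fell in PA against control, 0 rose and 0 fell in PA+OA against PA (limma, with 6 at an unadjusted p under 0.05, and 0 by voom), and 5 rose and 41 fell with BMS-309403 added to palmitate (25.2% and 29.4% of all genes; 12 and 20 of the 77 by voom), led by MRPS18B at -0.68 (adjusted p = 0.00501) and MRPS2 at -0.78. In PA against control the leading calls were MRPL35 at -0.48 and MRPS35 at -0.41, and voom called 0 that rose and 8 that fell. Of 4 mitochondrial elongation factors 2 fell with palmitate, GFM1 at -0.72 and GFM2 at -0.45, and 2 rose and 2 fell in PA+BMS against PA (2 and 1 by voom), with GFM2 at 0.58 and GFM1 at 0.69. Neither GFM1 nor GFM2 was called in either comparison with the trend removed. Of 4 cytosolic elongation factors 2 rose in PA against control, EEF1D at 0.64 and EEF2, the translocase, at 0.87, and 0 rose and 3 fell in PA+BMS against PA (1 and 1 by voom), with EEF2 at -0.72 and EEF1B2 at -0.62.

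Among 10 genes of transfer RNA maturation and export 3 fell in PA against control, beside 14.8% of all genes. They were led by SSB, the La protein that binds the ends of new transcripts, at -0.72 (adjusted p = 0.00432). In PA+OA against PA 1 rose (ELAC1, 0.49), beside 4.01% of all genes. In PA+BMS against PA 2 rose and 3 fell (3 and 1 by voom), near the 25.2% and 29.4% of all genes. XPOT had 33.6, 33.8 and 51.4 FPKM in PA+BMS, against 18.6, 15.3 and 21.1 FPKM in PA, the larger of these rises at 1.06 (SE 0.21, adjusted p = 0.00454), and ATF4 (-0.52, adjusted p = 0.186) and DDIT3 (0.34, adjusted p = 0.495) did not pass the test there. Of 10 integrated stress response genes 2 rose in that comparison, VLDLR (0.64) and ATF3 (0.71). The D-aminoacyl-tRNA deacylase DTD2, which clears mischarged transfer RNA, fell by 0.68 in PA against control and rose by 0.63 in PA+BMS against PA, and DTD1 fell by 0.27 in PA+BMS against PA. A further list held formylation and the mitochondrial amidotransferase, and it is the amidotransferase through which glutaminyl-tRNA is made in mitochondria. Of its 4 genes 0 were called in PA against control (limma, with 1 at an unadjusted p under 0.05, and 0 by voom). In PA+BMS against PA, GATB fell by 0.64 and QRSL1 rose by 0.39. Of 5 genes for selenocysteine charging tested, EEFSEC rose by 0.87 in PA against control, SEPHS2 rose by 0.62 where oleate was added, and SEPSECS (0.60) and SECISBP2 (0.46) rose where BMS-309403 was added.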

How the data were processed

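Poly(A) RNA of 12 HepaRG samples was sequenced as pairs of 150 bp reads on an Illumina NovaSeq, per the labels' protocols. The deposited table gives FPKM per gene as the authors computed it. Per the submitters' processing notes the tools included featureCounts 1.5.0-p3, HISAT2 2.0.5 and CASAVA, in no stated role. The genome build is not given in the sources used here, and all 58735 gene IDs, symbols and coordinates match GENCODE 29 on GRCh38, whose transcripts supplied GC content; lengths are the table's own. Dividing the FPKM values by the worth of 1 read gave whole reads (tolerance 0.001).

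Genes at 1 FPKM or more in at least 3 libraries (11856) were tested on log2(FPKM + 1), a scale that understates the change of low genes, with limma 3.58.1 in R 4.3.3: 1 mean per group, all 12 libraries, 8 residual degrees of freedom, empirical Bayes with a trend, and Benjamini-Hochberg adjustment over all tested genes at 0.05. The fit was also run on simulated reads that had no GC trend and no library standing apart. That run cannot show how the fit behaves on these libraries. All 39 genes could be named. Values per library with change, error and adjusted p were set for the 6 of lowest p in each of the 3 comparisons with PA and for MARS, WARS, GARS and KARS. From each pathway list the 2 called genes of lowest p, with ATF4, DDIT3 and XPOT, were named. LARS in PA, SARS, IARS2, FARSA and FARSB were described in full because of values already seen. The members and lists were chosen with earlier results of these data known. Alternatives were another pseudocount, filters, scalings, only the groups compared, a replicate block, voom on recovered reads, removal of the GC and length trend of each library by splines, and leaving out libraries. Python 3.11.15, pandas 2.3.3, numpy 2.4.6 and matplotlib 3.10.9 did the rest. Of the 39 genes 23 share exonic bases with another gene, 11 of them with one that reached 1 FPKM, and strand use in counting is not given in the sources used here, so reads there are uncertain.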

Additional observations from a re-analysis of the deposited data

How the results depend on the processing

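All alternatives here had been listed with the design; "both libraries" are replicate 1 of PA+OA and replicate 3 of PA+BMS, and where the cause of a change is not given it was not tested. In PA against control the mitochondrial genes that rose numbered 1 at equal library totals, 1 after removal of the GC and length trend and 7 without both libraries, and those that fell 0 with no filter, 1 with a filter at 5 FPKM, 4 at equal totals, 1 without the trend and 4 without both libraries. In PA+OA against PA 1 cytosolic gene rose and 1 fell without both libraries, and mitochondrial falls were 1 with totals set equal, 0 with only the groups compared, 1 by voom and 7 without both libraries. In PA+BMS against PA cytosolic rises were 5 with the trend removed, and falls 5 at equal totals, 5 with the trend removed and 6 by voom. There, mitochondrial rises were 5 at equal totals, 0 without the trend and 5 by voom, and falls 2 with totals set equal. PA+OA against control gave 10 calls with no filter and 10 with only the groups compared. PA+BMS against control gave 1 with no filter, 1 with only the groups compared, 7 with the trend removed and 5 without both libraries, and PA+OA against PA+BMS gave 9 with only the groups compared and 7 without both. More genes were tested without a filter, and fewer libraries were used with only the groups compared. Whether either changed the counts was not tested. In PA against control only the groups compared gave more calls, with 8 cytosolic rises and 7 falls, and 6 mitochondrial rises and 3 falls.

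Over the 12 fits that left out a library, PA against control gave 4 to 8 cytosolic rises, 2 to 7 cytosolic falls, 1 to 6 mitochondrial rises and 0 to 4 mitochondrial falls. PA+OA against PA gave 0 to 7 mitochondrial falls, PA+BMS against PA 5 to 8 cytosolic rises, PA+OA against control 9 to 23 calls, PA+BMS against control 1 to 7 and PA+OA against PA+BMS 9 to 25. An arm left with 2 libraries was assumed to vary like the others.

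The difference of cytosolic and mitochondrial mean log2 levels became 2.29 for PA+OA, 2.08 for PA+BMS and 2.10 for PA with the trend removed. It was 2.31, 2.32, 2.10 and 2.18 for PA+OA, PA+BMS, PA and control with totals set equal, and 2.35, 2.36, 2.14 and 2.21 with a pseudocount of 0.1. Among genes called in either fit, those that changed sign were KARS (0.31) and CARS (0.0392) in PA+BMS against PA with totals set equal, FARSB (-0.0107) and AARS2 (0.0410) there with the trend removed, and PARS2 in PA+OA against control (-0.00712) with the trend removed. Genes near 0 that were not called also changed sign under voom or equal totals, among them GARS, KARS and WARS in PA against control: of 39 genes, 17 by voom and 22 in the reported fit lay above 0 there, and 21 and 15 in PA+BMS against PA.

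With the replicate number as a block, PA against control gave 8 cytosolic rises and 8 falls, and PA+BMS against control 3 calls; the other counts also stayed within 1.5 times. Same-numbered libraries correlated between -0.278 and 0.563, with 9 of 18 pairs over 0.1: all 3 pairs of PA+OA and control (where the block gave 22 calls against 20) and 0 of 3 of PA and control. A hint of pairing in the data is that 9 of 12 libraries matched best to their own number. The labels give the numbers no meaning and not every pair passed 0.1, so the fits without a block are reported. SARS2, with as few as 37 reads, is the gene whose precision depth limits most.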
